A study of Mus musculus with 16 samples.

Results

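The Wnt pathway genes of hair follicle stem cell (HFSC) organoids are described here: ligands, the proteins that secrete them, receptors, inhibitors, the β-catenin destruction complex and the transcription factors. They were taken by name, as every mouse gene whose symbol is Wnt or Fzd with a number, Dkk1 to Dkk4, Sfrp1 to Sfrp5, and 20 further named genes from Lrp5 and Axin2 to Porcn and Nkd1, without use of any measured value. The rule gave 57 genes. Of these, 52 had a row among the 32989 identifiers of the count table, and 35 reached the mean count of 5 that was asked of the 19049 tested genes. The 17 with a lower mean count are given at the end as counts only, and Wnt1, Wnt2, Wnt9b, Dkk4 and Sfrp5 were not analysed here.

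Organoids from 4 C57BL/6J mice, grown for 2 weeks in Matrigel under the 3D-3C condition (keratinocyte medium with Y27632, VEGF and FGF2), received N1-acetylspermidine (N1-AcSpd, a polyamine carrying an acetyl group) for the last 72 h or no treatment. Sorting gave progenitors (α6+/CD34−) and HFSCs (α6+/CD34+), which were measured by 3′ RNA-seq with unique molecular identifiers (UMIs). Each mouse gave 1 library to each of the 4 groups, so a comparison of 1 group with another was of 4 against 4 libraries. The treatment effect averaged over both sorts and the interaction used all 16 libraries, from the same 4 mice. All cells, controls included, had the same medium and no genetic change, and the study took epidermal cells from mice of both sexes with resting follicles, without stating which sex, or which of its 2 postnatal age windows, applied to these 4 animals.

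In the canonical branch of the pathway, a secreted Wnt ligand binds a Frizzled receptor and an Lrp5 or Lrp6 co-receptor, the destruction complex of Axin, Apc and Gsk3b stops marking β-catenin for degradation, and β-catenin acts with Tcf and Lef factors in the nucleus. Secreted Sfrp proteins and Wif1 bind ligands, Dkk1 and Dkk2 act on Lrp5 and Lrp6, and Rnf43 and Znrf3 remove Frizzled receptors unless R-spondins engage Lgr4, Lgr5 or Lgr6. In the hair follicle, Wnt signalling is known for starting hair growth from resting stem cells, and several Wnt inhibitors are known bulge genes.

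Library totals ran from 15480075 to 29074855 UMIs and were higher in most CD34− libraries. The sort gene Cd34 had 2.87 to 3.65 CPM (a UMI count scaled to a common library total after TMM normalisation) in the CD34− sort and 43.4 to 64.0 CPM in the CD34+ sort, with near-identical counts for an overlapping gene model, Gm16897. Keratinocyte genes (Krt5, Krt14 and 3 others) summed to between 5790 and 7020 CPM, 7 HFSC genes to 64.1 to 92.0 CPM in CD34− and 370 to 620 CPM in CD34+ libraries, and 7 differentiated keratinocyte genes to 1030 to 1560 CPM in CD34− and 295 to 399 CPM in CD34+ libraries. Lists of 8 fibroblast, 6 immune and 3 Merkel cell genes summed to at most 2.55, 3.38 and 0.128 CPM, and 7 melanocyte genes to 28.0 to 36.1 CPM, nearly all of it from Mitf and Pmel, which overlap other genes. Of 3 endothelial genes, Pecam1 stood at 1690 to 2050 CPM while Kdr did not pass 0.36 CPM. In bulk samples such as these, fewer cells of a type and less RNA per cell cannot be told apart, and the higher level of differentiated keratinocyte genes in the CD34− sort moved with every cell type effect below. Its part in them was not tested.

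The sequences of 4 promoters are shown, those of the receptors Fzd1, Fzd7 and Lgr4 and the transcription factor Tcf7l2. Their genes were higher in CD34+ cells in both conditions, but not every promoter of such genes is shown. Each holds the 250 bases before the start of transcription in RefSeq (GRCm38.p6), 5′ to 3′ on the strand of the gene. Fzd1 lies at chr5:4758217-4758466 (minus strand), Fzd7 at chr1:59481897-59482146 (plus strand), Lgr4 at chr2:109917397-109917646 (plus strand) and the longer Tcf7l2 form at chr19:55741560-55741809 (plus strand). Capitals mark matches to 4 short words on either strand. The word CTTTGAA and its variant CTTTGAT are forms of the Tcf/Lef recognition word. The GC box is searched as GGGCGG. The TATA box is searched as TATAAA.
Fzd1: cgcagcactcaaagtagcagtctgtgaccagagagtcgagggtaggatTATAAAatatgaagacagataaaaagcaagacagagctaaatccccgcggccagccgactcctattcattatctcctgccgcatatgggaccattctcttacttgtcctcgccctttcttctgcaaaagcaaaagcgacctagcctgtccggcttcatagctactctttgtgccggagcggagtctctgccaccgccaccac
Fzd7: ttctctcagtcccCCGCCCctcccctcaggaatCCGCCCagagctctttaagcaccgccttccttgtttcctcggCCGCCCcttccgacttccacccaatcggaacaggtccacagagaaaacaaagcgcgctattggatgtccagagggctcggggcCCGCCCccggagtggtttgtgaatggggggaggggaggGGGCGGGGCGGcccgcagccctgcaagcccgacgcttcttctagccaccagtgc
Lgr4: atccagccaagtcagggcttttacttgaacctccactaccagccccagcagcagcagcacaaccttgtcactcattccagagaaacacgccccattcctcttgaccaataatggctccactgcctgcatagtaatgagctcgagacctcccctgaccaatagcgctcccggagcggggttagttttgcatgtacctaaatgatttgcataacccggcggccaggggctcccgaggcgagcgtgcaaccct
Tcf7l2: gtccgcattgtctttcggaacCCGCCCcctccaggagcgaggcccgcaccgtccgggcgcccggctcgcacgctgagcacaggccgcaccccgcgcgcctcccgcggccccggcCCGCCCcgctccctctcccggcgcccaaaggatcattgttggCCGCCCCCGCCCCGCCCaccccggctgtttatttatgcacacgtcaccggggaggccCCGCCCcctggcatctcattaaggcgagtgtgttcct
The Fzd1 stretch held 1 TATAAA, Fzd7 and Tcf7l2 held 6 GGGCGG each, counting overlapping copies, and Lgr4 held none of the 4 words. Wnt5b, also higher in both conditions, is not shown, and 1 of its promoters (chr6:119449387-119449636, minus strand) held 1 CTTTGAT and 2 GGGCGG. The other Tcf7l2 promoter (chr19:55895071-55895320), also not shown, held 1 TATAAA and no GGGCGG, at 40.8% GC. GC content was 51.2% for Fzd1, 65.2% for Fzd7, 55.6% for Lgr4 and 72.8% for Tcf7l2. Over windows of 300 bases (250 before to 50 after the start), 37 of the 57 genes had 47 windows. GGGCGG stood in 70.2% of these windows against 35.7% of all 32851 windows, with a median GC content of 66.3% against 52.7%. TATAAA stood in 21.3% against 13.6%, and CTTTGAA or CTTTGAT in 3 windows, 6.4% against 8.7%. A match of letters is a description of the sequence and not a binding site.

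Without supplementation, the comparison of HFSCs with progenitors (the cell type effect) addressed which Wnt pathway genes separate the sorts. The Frizzled receptors Fzd1, Fzd2, Fzd3, Fzd7 and Fzd8 (5 of the 8 Frizzled genes tested) and the R-spondin receptor Lgr4 were higher in CD34+ cells. So were the inhibitor Sfrp1, the Dickkopf family gene Dkk3, the ligand-modifying enzyme Porcn and Tcf7l2. The ligands Wnt4 and Wnt7b were lower. Of the 35 genes tested, edgeR's quasi-likelihood test called 15 at an adjusted p under 0.05, of which 13 were higher in the CD34+ sort and 2 lower. That is 42.9%, where 32.1% of all 19049 tested genes were called (16.1% higher and 16.1% lower). The median log2 fold change was 0.27 over the 35 genes and 0.02 over all genes. The 4 CD34− and 4 CD34+ libraries did not overlap for 16 of the 35, against 32.2% of all genes. With library totals in place of TMM, which shifted the median of all genes to 0.14, 21 genes were called, 19 of them higher.

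Under N1-AcSpd the cell type effect was called for 16 of the 35 genes, of which 14 were higher in the CD34+ sort and 2 lower. That is 45.7%, against 33.3% of all tested genes (16.5% higher and 16.8% lower). The median log2 fold change was 0.26 over the 35 genes and -0.01 over all genes. The groups did not overlap for 17 genes, against 34.4% of all genes. Library totals shifted the median of all genes to 0.11, and 20 genes were then called, 18 of them higher. 14 genes were called in both conditions, 93.3% of the untreated and 87.5% of the N1-AcSpd calls, each in the same direction. Both conditions used separate libraries of the same 4 mice.

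**Figure D1:**
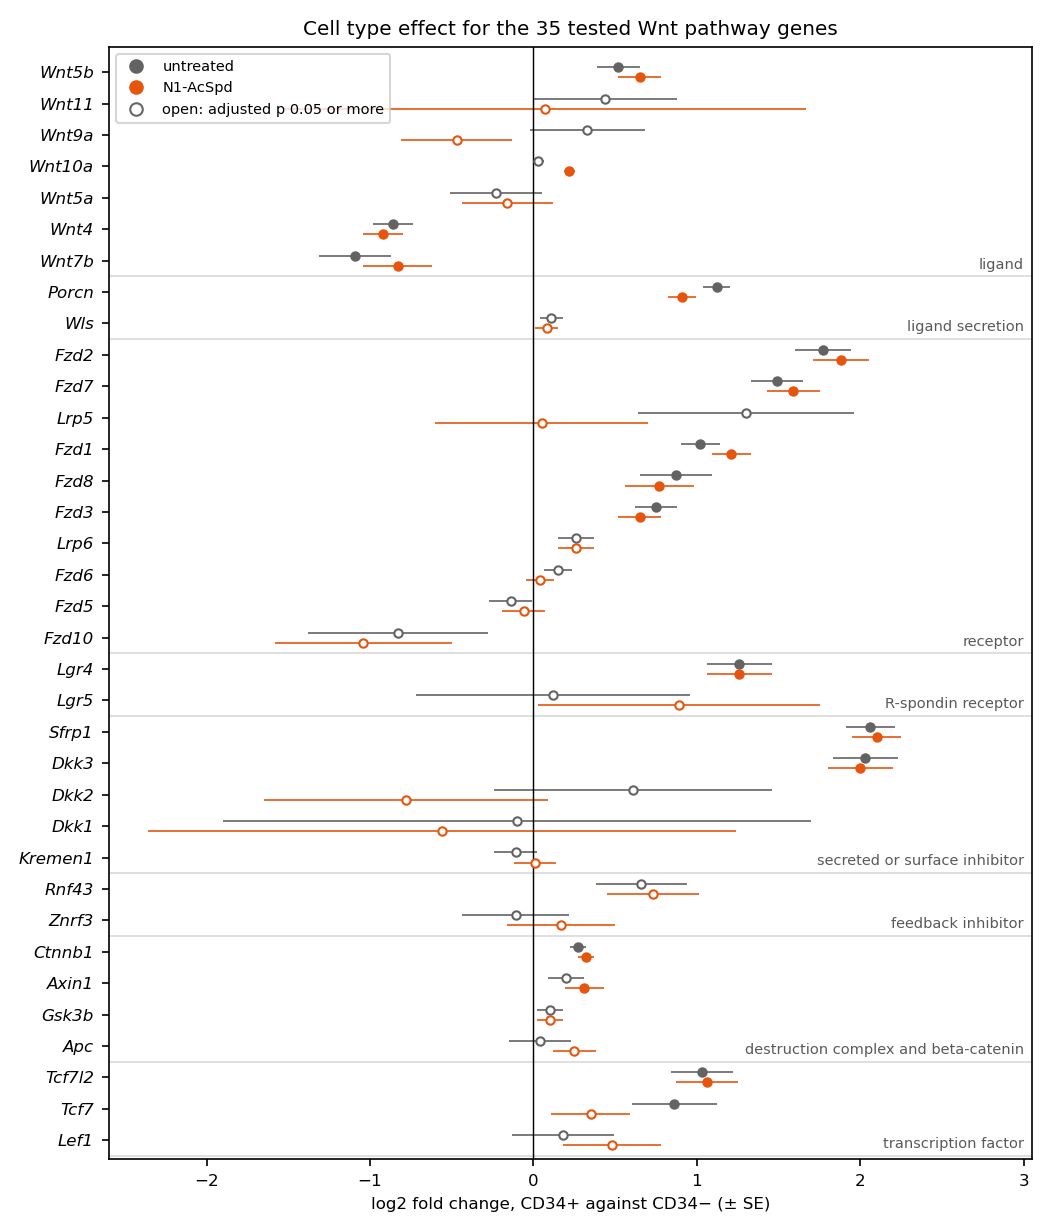
Cell type effect for the 35 tested genes, grouped by role: the horizontal axis gives the log2 fold change of CD34+ against CD34− cells with its SE, in grey for untreated and orange for N1-AcSpd-treated cells. Filled points are genes called by edgeR, and the filled points lie to the right of 0 except those of Wnt4 and Wnt7b.

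Among 19 ligands of the rule, 16 had a row and 7 were tested. Wnt4, a ligand expressed in epidermal keratinocytes, lies on chromosome 4 (137277489 to 137299726 on GRCm38, ENSMUSG00000036856). It stood at 19.6, 19.3, 23.5 and 23.6 CPM in the untreated CD34− libraries of mice 1 to 4 and at 10.2, 10.3, 13.4 and 13.4 CPM in the CD34+ libraries. With N1-AcSpd it stood at 20.7, 23.0, 23.3 and 26.0 CPM in CD34− and at 11.4, 10.8, 13.7 and 13.1 CPM in CD34+ libraries. Every CD34− library thus lay above every CD34+ library, in both conditions. The log2 fold change was -0.86 (SE 0.12, edgeR adjusted p 8.53e-05) in untreated and -0.92 (SE 0.12, adjusted p 3.97e-05) in treated cells, lower in 4 of 4 mice.

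Wnt7b, another epidermal ligand (chromosome 15, 85535437 to 85582473), also fell. Untreated CD34− libraries held 1.93, 2.87, 2.42 and 2.30 CPM and CD34+ libraries 0.967, 1.10, 1.52 and 0.873 CPM. Treated CD34− libraries held 2.02, 2.73, 1.79 and 2.71 CPM and CD34+ libraries 1.00, 1.54, 1.10 and 1.58 CPM. The groups did not overlap in either condition, and the log2 fold changes were -1.09 (SE 0.22, edgeR adjusted p 0.00166) and -0.83 (SE 0.21, adjusted p 0.00861).

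Wnt10a, a ligand of hair and tooth development (chromosome 1, 74791516 to 74804179), hardly moved between sorts without treatment. It stood at 45.7 ± 0.592 CPM in untreated CD34− and 46.6 ± 1.56 CPM in untreated CD34+ cells (SD, n = 4), which gave 0.03 on the log2 scale (SE 0.033, edgeR adjusted p 0.593). With N1-AcSpd it stood at 43.8, 45.9, 42.8 and 46.3 CPM in CD34− and at 52.5, 50.7, 51.4 and 53.1 CPM in CD34+ libraries. The treated CD34+ libraries lay above all 12 others, and the gene was called, with 0.22 on the log2 scale (SE 0.033, adjusted p 2.12e-04). The difference between the conditions, tested as an interaction, was 0.19 (SE 0.047, p 0.00151) with an edgeR adjusted p of 1, so it was not called over all genes.

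Wnt5b stood at 2.49, 1.66, 1.99 and 2.21 CPM in untreated CD34− and at 2.96, 2.91, 2.93 and 3.24 CPM in untreated CD34+ libraries. Treated CD34− libraries held 1.61, 1.74, 2.20 and 1.93 CPM and treated CD34+ libraries 2.52, 3.36, 3.01 and 2.88 CPM. The sorts did not overlap and Wnt5b was called higher in both conditions, by 0.52 (SE 0.13, edgeR adjusted p 0.00797) and 0.65 (SE 0.13, adjusted p 0.00163) on the log2 scale. Its counts are uncertain, since Fbxl14, which lies on the opposite strand within its span, held 751 counts in all against 819 for Wnt5b. Without mouse 4 the untreated call ended (log2 0.51, adjusted p 0.0647). Wnt5a, a ligand of the non-canonical branches, stood at 0.891 ± 0.358 CPM in untreated CD34− and 0.760 ± 0.154 CPM in untreated CD34+ cells, with adjusted p-values of 0.612 and 0.733 in the 2 conditions. Wnt9a and Wnt11 were not called either, and their libraries ran from 0.371 to 1.31 CPM and from 0.165 to 0.740 CPM.

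Porcn, the enzyme that attaches the lipid that Wnt ligands need for secretion, was the member with the most UMIs, 39345 over 16 libraries (chromosome X, 8193848 to 8206525, ENSMUSG00000031169). Untreated CD34− libraries held 97.8, 96.1, 82.3 and 80.2 CPM and untreated CD34+ libraries 205, 176, 189 and 203 CPM. Treated CD34− libraries held 72.1, 75.6, 63.2 and 73.1 CPM and treated CD34+ libraries 127, 135, 122 and 148 CPM. All CD34+ libraries lay above all CD34− libraries, and within each sort the treated libraries lay below the untreated ones. The cell type effect was 1.12 (SE 0.084, edgeR adjusted p 7.86e-07) in untreated and 0.91 (SE 0.084, adjusted p 2.58e-06) in treated cells on the log2 scale. Wls, the carrier that takes Wnt ligands to the cell surface, was not called, at 0.11 (SE 0.073, adjusted p 0.275) and 0.08 (SE 0.073, adjusted p 0.457).

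**Figure D2:**
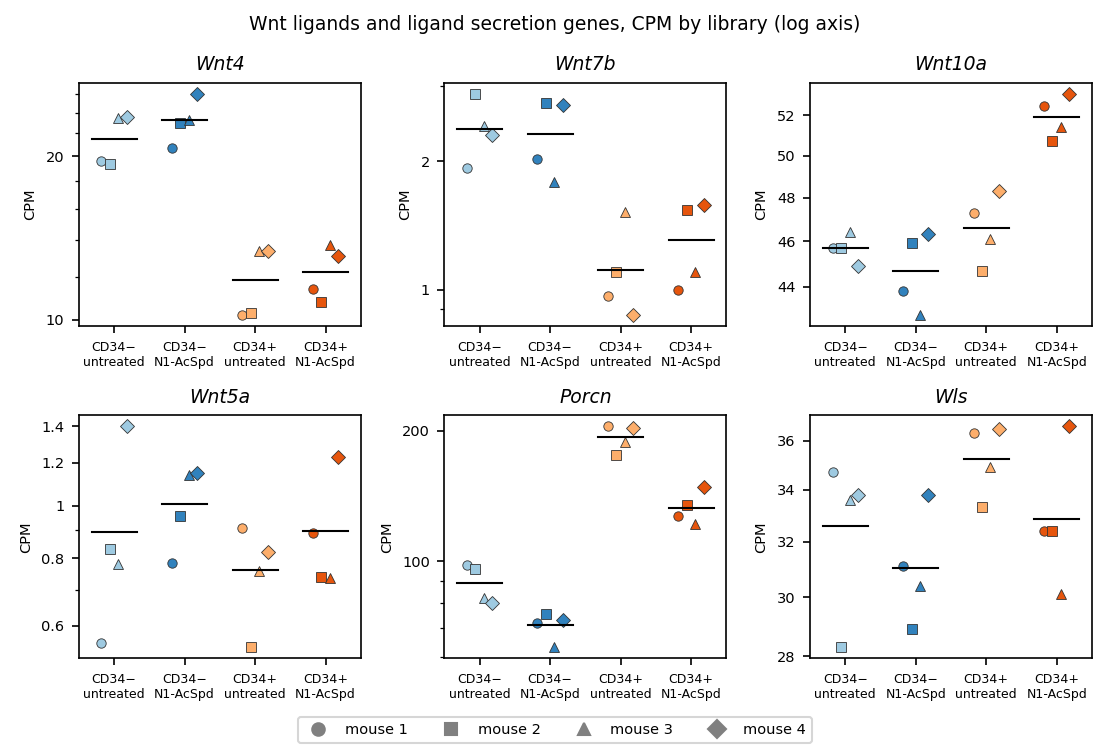
CPM by library for 4 ligands and 2 ligand secretion genes, on log axes that differ between panels; each point is 1 library, its shape gives the mouse, and the black line is the group mean. Wnt4 and Wnt7b are lower and Porcn is higher in CD34+ libraries, and Wnt10a stands apart in the treated CD34+ libraries, from 50.7 to 53.1 CPM.

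Of 12 receptors and co-receptors, 10 were tested, and 5 were called higher in both conditions, all of them Frizzled genes. Fzd2 (chromosome 11, 102604396 to 102608058, ENSMUSG00000050288) stood at 3.48, 3.96, 3.59 and 3.25 CPM in untreated CD34− and at 13.4, 10.5, 10.5 and 14.3 CPM in untreated CD34+ libraries. In treated cells it stood at 2.52, 2.98, 2.55 and 3.73 CPM in CD34− and at 9.17, 8.88, 10.9 and 14.4 CPM in CD34+ libraries. The lowest CD34+ library lay well above the highest CD34− library, and the difference was 1.77 (SE 0.17, edgeR adjusted p 3.93e-06) and 1.88 (SE 0.17, adjusted p 2.41e-06) on the log2 scale, 3.41-fold and 3.67-fold.

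Fzd7 (chromosome 1, 59482424 to 59486955) has the promoter shown above with 6 matches to GGGCGG. It stood at 2.67, 1.79, 1.56 and 1.98 CPM in untreated CD34− and at 6.82, 4.61, 5.69 and 5.50 CPM in untreated CD34+ libraries. With N1-AcSpd it stood at 1.94, 1.56, 1.41 and 1.72 CPM against 5.16, 4.55, 5.09 and 5.17 CPM. No CD34+ library reached down to a CD34− library. The log2 fold changes were 1.49 (SE 0.16, edgeR adjusted p 9.66e-06) and 1.59 (SE 0.16, adjusted p 4.97e-06).

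Fzd1 (chromosome 5, 4753839 to 4758035), with the TATA word in its promoter, stood at 2.11, 2.23, 1.95 and 1.94 CPM in untreated CD34− and at 4.55, 3.89, 3.96 and 4.26 CPM in untreated CD34+ libraries. In treated cells the values were 1.81, 1.53, 1.44 and 1.31 CPM against 4.23, 3.02, 3.43 and 3.46 CPM. The sorts were again separate, by 1.02 (SE 0.12, edgeR adjusted p 1.87e-05) and 1.21 (SE 0.12, adjusted p 3.69e-06) on the log2 scale.

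Fzd3, a receptor best known from planar cell polarity (chromosome 14, 65192449 to 65262463), stood at 2.54, 2.23, 2.29 and 2.89 CPM in untreated CD34− and at 3.47, 3.84, 4.61 and 4.83 CPM in untreated CD34+ libraries. With N1-AcSpd the values were 2.68, 2.91, 2.32 and 2.21 CPM against 3.79, 4.49, 4.17 and 3.40 CPM. The log2 fold changes were 0.75 (SE 0.13, edgeR adjusted p 7.21e-04) and 0.65 (SE 0.13, adjusted p 0.00173). Fzd8, a further Frizzled receptor, rose from 1.04 ± 0.334 to 1.90 ± 0.109 CPM and from 1.00 ± 0.104 to 1.72 ± 0.301 CPM (log2 0.87 and 0.77, adjusted p 0.00700 and 0.0123). For both receptors the sorts did not overlap in either condition.

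The other 5 tested receptors were not called in either condition. Fzd6 ran from 11.3 to 14.7 CPM and Fzd5 from 2.58 to 4.24 CPM over the 16 libraries, with log2 cell type effects of 0.15 (SE 0.088) and -0.14 (SE 0.13) in untreated cells. The co-receptor Lrp6 stood at 10.3 ± 1.32 CPM in untreated CD34− and 12.3 ± 0.239 CPM in untreated CD34+ cells, a difference of 0.26 on the log2 scale (SE 0.11, edgeR adjusted p 0.0841), and the treated difference was also 0.26 (adjusted p 0.0854). Lrp5 and Fzd10 rested on 104 and 127 UMIs in all, and their untreated effects of 1.30 (SE 0.66) and -0.83 (SE 0.55) had adjusted p-values of 0.160 and 0.296.

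Lgr4, the R-spondin receptor whose promoter held none of the 4 words, lies on chromosome 2 (109917647 to 110014257). It stood at 1.50, 1.09, 1.04 and 1.89 CPM in untreated CD34− and at 2.84, 2.96, 3.36 and 4.16 CPM in untreated CD34+ libraries. N1-AcSpd-treated CD34− libraries held 1.15, 1.63, 0.950 and 1.23 CPM and treated CD34+ libraries 2.78, 2.96, 3.01 and 3.23 CPM. The sorts were separate and the log2 fold change was 1.26 in both conditions (SE 0.20, edgeR adjusted p 3.40e-04 and 2.77e-04).

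Lgr5, the R-spondin receptor that marks cycling stem cells in several epithelia, was not called. It held 88, 69, 127 and 115 UMIs in untreated CD34− and 81, 92, 92 and 115 UMIs in untreated CD34+ libraries. Treated CD34+ libraries held 105, 91, 72 and 96 UMIs. Treated CD34− libraries of mice 1 and 4 held 132 and 117 UMIs, but those of mice 2 and 3 held 3 and 0. The remaining 14 libraries lay between 3.78 and 5.91 CPM, and the sorts overlapped in untreated cells, where the log2 difference was 0.12 (SE 0.84, edgeR adjusted p 0.949). Those 2 libraries were the deepest of the 16, with 29074855 and 27334651 UMIs.

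**Figure D3:**
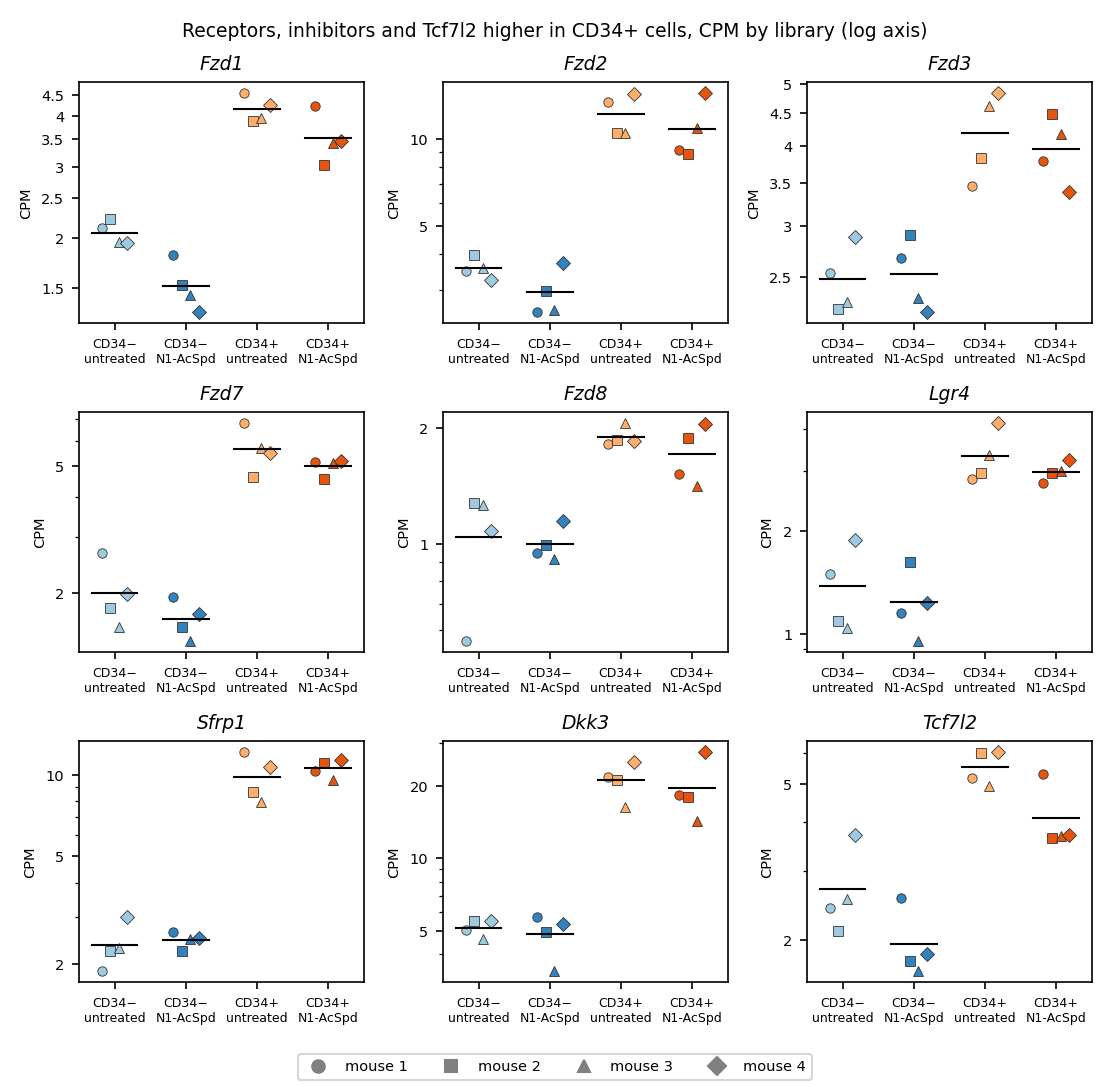
CPM by library for 9 genes called higher in CD34+ cells in both conditions, on log axes that differ between panels; each point is 1 library, its shape gives the mouse, and the black line is the group mean. In every panel all CD34+ libraries lie above all CD34− libraries of the same condition.

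Sfrp1 and Dkk3 had the largest log2 cell type effects of the 35 tested genes. Sfrp1, a secreted protein with a Frizzled-like domain that binds ligands (chromosome 8, 23411502 to 23449632, ENSMUSG00000031548), stood at 1.89, 2.23, 2.29 and 2.98 CPM in untreated CD34− and at 12.1, 8.61, 7.91 and 10.7 CPM in untreated CD34+ libraries. In treated cells it stood at 2.64, 2.23, 2.47 and 2.50 CPM against 10.3, 11.1, 9.57 and 11.3 CPM. The sorts were far apart in both conditions, and the log2 fold changes of 2.06 (SE 0.15, edgeR adjusted p 5.84e-07) and 2.10 (SE 0.15, adjusted p 3.70e-07) are 4.17-fold and 4.28-fold.

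Dkk3, a divergent member of the Dickkopf family (chromosome 7, 112116017 to 112159057), stood at 5.07, 5.49, 4.63 and 5.50 CPM in untreated CD34− and at 21.7, 21.2, 16.4 and 25.0 CPM in untreated CD34+ libraries. With N1-AcSpd, CD34− libraries held 5.73, 4.97, 3.42 and 5.33 CPM and treated CD34+ libraries 18.4, 17.9, 14.3 and 27.5 CPM. Every mouse showed the difference, at 2.03 (SE 0.20, edgeR adjusted p 5.04e-06) and 2.00 (SE 0.20, adjusted p 4.93e-06) on the log2 scale.

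Dkk1, which blocks Lrp5 and Lrp6, was seen in only some libraries. It held 17, 0, 0 and 24 UMIs in untreated CD34−, 0, 15, 27 and 8 in treated CD34−, 0, 0, 0 and 33 in untreated CD34+ and 32, 0, 0 and 0 in treated CD34+ libraries. Libraries with and without the gene stood in every group and no mouse was at 0 in all 4 groups, so the values give no order of the groups (edgeR adjusted p 0.983 in untreated cells). Dkk2 ran from 0 to 0.822 CPM, and Kremen1, a Dkk receptor, from 2.47 to 3.87 CPM, both without a call. The Frizzled-removing ubiquitin ligase Rnf43 stood at 0.451 ± 0.121 CPM in untreated CD34− and 0.719 ± 0.244 CPM in untreated CD34+ cells, with log2 fold changes of 0.66 (SE 0.28, adjusted p 0.0966) and 0.73 (SE 0.28, adjusted p 0.0607). Its relative Znrf3 had effects of -0.11 (SE 0.33) and 0.17 (SE 0.33).

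**Figure D4:**
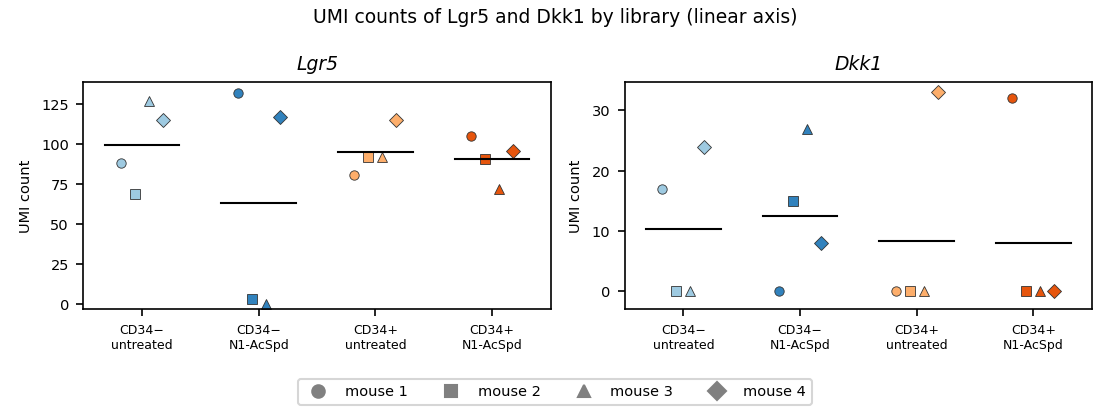
UMI counts by library for Lgr5 and Dkk1 on linear axes; each point is 1 library, its shape gives the mouse, and the black line is the group mean. Lgr5 falls to 3 and 0 UMIs in 2 treated CD34− libraries, and Dkk1 is at 0 in 9 libraries spread over the 4 groups.

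Tcf7l2, a nuclear partner of β-catenin (chromosome 19, 55741820 to 55933654), stood at 2.41, 2.11, 2.55 and 3.70 CPM in untreated CD34− and at 5.18, 5.98, 4.93 and 6.01 CPM in untreated CD34+ libraries. In treated cells it stood at 2.56, 1.77, 1.67 and 1.84 CPM against 5.31, 3.64, 3.68 and 3.70 CPM. The sorts were separate within each condition, at 1.03 (SE 0.19, edgeR adjusted p 8.18e-04) and 1.06 (SE 0.19, adjusted p 6.00e-04) on the log2 scale. Tcf7 was called in untreated cells alone, at 0.86 (SE 0.26, adjusted p 0.00497) against 0.35 (SE 0.24, adjusted p 0.270), with an interaction of -0.51 (SE 0.34, adjusted p 1). It rested on 289 UMIs in all and lies beside Gm26551 with 93357 UMIs in its span. Lef1, the third factor, had effects of 0.18 (SE 0.31) and 0.48 (SE 0.30) and was not called, and an antisense gene model, Gm43352, held 75.0% as many UMIs.

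Ctnnb1, the gene of β-catenin (chromosome 9, 120929216 to 120960507), stood at 39.2 ± 1.50 CPM in untreated CD34− and 47.3 ± 2.32 CPM in untreated CD34+ cells. With N1-AcSpd it stood at 33.6 ± 1.24 CPM and 41.9 ± 2.49 CPM. The sorts did not overlap, at 0.27 (SE 0.049, edgeR adjusted p 8.12e-04) and 0.32 (SE 0.049, adjusted p 1.95e-04) on the log2 scale. These counts cannot be told apart from those of Ulk4, which overlaps Ctnnb1 on the opposite strand and held 13504 UMIs against 13485. Axin1, the scaffold of the destruction complex, was called in treated cells at 0.31 (SE 0.12, adjusted p 0.0278) and not in untreated cells at 0.20 (SE 0.11, adjusted p 0.174), with an interaction of 0.11 (SE 0.18, adjusted p 1). Gsk3b was at 0.10 (SE 0.081) in both conditions, and Apc, whose span holds Gm10548 with 91.6% as many UMIs, at 0.04 (SE 0.19) and 0.25 (SE 0.13), all without a call.

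Of the 35 tested genes, 5 are overlapped by another gene that held at least 0.5 of their UMIs (Apc, Ctnnb1, Wnt5b, Lef1 and Tcf7), and the strand setting of the counting is not given in the sources used here. Leaving such genes out, an alternative chosen after seeing the data, 12 genes remained called in untreated cells (10 higher, 2 lower) and 14 in treated cells (12 higher, 2 lower).

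The treatment effect asked what N1-AcSpd changed within each sort. In CD34− cells edgeR called none of the 35 genes, against 117 of all 19049 tested genes (0.614%). DESeq2 called 2, Ctnnb1 and Porcn, but it also called more of all genes, 558. A fit with mouse as a block called 1, Ctnnb1, and 349 of all genes. An unadjusted p under 0.05 was reached by 5 members (13.6% of all genes did), Ctnnb1, Porcn, Fzd1 and Tcf7l2 with lower and Wnt9a with higher values in treated libraries. Treated and untreated CD34− libraries did not overlap for 5 genes, Axin1, Ctnnb1, Porcn, Fzd1 and Tcf7, where 9.05% of all genes did not. The Ctnnb1 difference was -0.22 (SE 0.049, adjusted p 0.0672, or 0.0409 with mouse as a block). Its untreated CD34− libraries held 38.3, 39.8, 37.7 and 40.9 CPM and the treated ones 34.6, 32.2, 34.7 and 32.8 CPM, so that the groups were separate. The Wnt9a difference of 0.79 (SE 0.34, adjusted p 0.333) rested on a mean of 16.1 UMIs per library. Among members averaging 50 or more UMIs per library, Fzd6 had the smallest p of the positive differences. That difference was 0.11 (SE 0.088, adjusted p 0.685), with 11.7, 11.9, 11.3 and 13.4 CPM in untreated and 12, 12.8, 12.6 and 14.7 CPM in treated CD34− libraries, which overlapped.

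In CD34+ cells 1 gene was called, Porcn, against 0.325% of all tested genes. From the values given above it fell by 0.54 on the log2 scale (SE 0.084, edgeR adjusted p 0.0166), lower in 4 of 4 mice, from 193 ± 13.6 to 133 ± 11.3 CPM (SD, n = 4). In CD34− cells the same gene stood at 89.1 ± 9.13 CPM without and 71.0 ± 5.43 CPM with N1-AcSpd, also lower in 4 of 4 mice, at -0.33 (SE 0.083, adjusted p 0.0990). The difference between these effects was -0.21 (SE 0.12, adjusted p 1). The CD34+ call ended with only the compared groups in the fit (adjusted p 0.0903). It also ended on leaving out mouse 1 or 4 from the untreated or mouse 1 or 3 from the treated CD34+ libraries, and on leaving out any 1 of the 4 mice altogether, with the log2 fold change between -0.59 and -0.49 throughout. Calls over all genes fell as well, from 62 to 23 with only the compared groups. Without mouse 1, 2, 3 or 4 they fell to 5, 8, 12 and 3. Treated and untreated CD34+ libraries did not overlap for 2 genes, Porcn and Wnt10a, where 6.81% of all genes did not. The Wnt10a difference of 0.16 (SE 0.033, edgeR adjusted p 0.0765) was not called, but it was by DESeq2 (0.00341) and with DESeq2 size factors in edgeR (0.0476). DESeq2 also called Ctnnb1 lower in CD34+ cells (-0.16, adjusted p 0.0452). Over all genes DESeq2 called 431 in CD34+ cells, where edgeR called 62.

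Averaged over both sorts, 3 of the 35 genes were called and all 3 were lower with N1-AcSpd, against 4.86% of all tested genes (2.16% lower). The median log2 fold change was -0.10 over the 35 genes and -0.01 over all genes. Porcn fell by 0.43 (SE 0.059, edgeR adjusted p 0.00240), Ctnnb1 by 0.20 (SE 0.035, adjusted p 0.00796) and Fzd1 by 0.33 (SE 0.11, adjusted p 0.0401) on the log2 scale, each lower in 4 of 4 mice. Porcn was called in all 20 runs that left out 1 library or 1 mouse. The Ctnnb1 call ended without mouse 1, 2 or 4, and its counts carry the doubt on Ulk4 given above. The Fzd1 call ended in 14 of the 20 runs, with DESeq2 (adjusted p 0.0904), without a filter on low counts (0.0794) and after thinning every library to the depth of the smallest (0.0666). Tcf7l2 was at -0.45 (SE 0.13, adjusted p 0.0687) and was not called, but DESeq2 called it (adjusted p 0.0379), as did edgeR after thinning (0.0471). Over all genes DESeq2 called 1546 on average, where edgeR called 925.

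Genes of the sorted cells moved in the same comparison. Of the 7 differentiated keratinocyte genes, 2 were called higher with N1-AcSpd, Ivl by 0.60 (SE 0.096, edgeR adjusted p 0.00504) and Sbsn by 0.25 (adjusted p 0.0346) on the log2 scale. The Sbsn counts cannot be told apart from those of Tmem147os, which overlaps it on the same strand and held 93183 UMIs against 92947. Of the 7 HFSC genes, 2 were called lower, Krt15 at -0.37 (adjusted p 0.0449) and Nfatc1 at -0.20 (adjusted p 0.0365). The other differentiated keratinocyte genes were not called and all had higher values (Lor 0.42, Krt1 0.26, Krtdap 0.23, Krt10 0.01 and Flg 0.01). Flg is overlapped by Rplp0-ps1, with 73.9% as many UMIs. The other HFSC genes were not called and went both ways. Lhx2 (0.36) and Cd34 (0.06) had higher values, and Sox9 (-0.21), Tcf7l1 (-0.19) and Lgr5 (-0.49) lower ones. The HFSC sums below rest mostly on Krt15 and Sox9, with means of 393 and 73.7 CPM in untreated CD34+ and 38.6 and 34.8 CPM in untreated CD34− cells. The differentiation sums rest mostly on Krtdap and Sbsn, with means of 148 and 126 CPM in untreated CD34+ and 770 and 336 CPM in untreated CD34− cells. In CD34− libraries the summed differentiation genes ran from 1030 to 1370 CPM without and from 1240 to 1560 CPM with N1-AcSpd, and the summed HFSC genes from 83.1 to 92.0 and from 64.1 to 78.0 CPM. In CD34+ libraries the sums were 295 to 320 against 309 to 399 CPM and 451 to 620 against 370 to 558 CPM. Their part in the treatment effects was not tested.

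**Figure D5:**
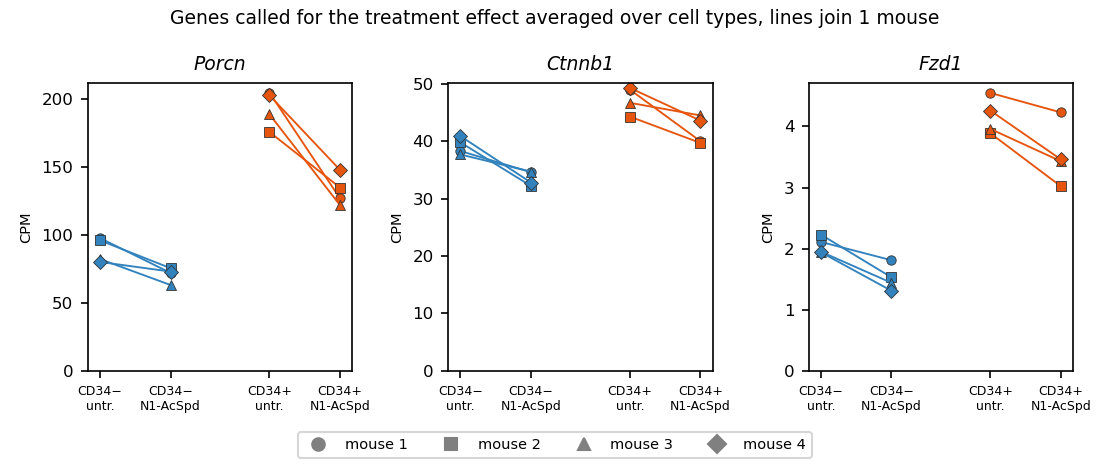
CPM by library for the 3 genes called for the treatment effect averaged over both sorts, on linear axes from 0; lines join the untreated and the treated library of 1 mouse within a sort. All 8 lines fall for each of the 3 genes, and Porcn falls from 193 ± 13.6 to 133 ± 11.3 CPM in CD34+ cells.

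The interaction asked whether the cell type effect differed between the conditions. edgeR called none of the 35 genes and none of all 19049 (0%), while an unadjusted p under 0.05 was reached by 1 member, Wnt10a, and by 799 genes in all (4.19%). DESeq2 and the fit with mouse as a block called none of the members either.

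A second list held 81 other Wnt pathway genes, among them further receptors, adaptors, co-repressors, modulators and common targets, of which 56 were tested. The untreated comparison called 25 of them (16 higher in the CD34+ sort, 9 lower), 44.6% against 32.1% of all tested genes, and the treated comparison 30 (21 higher, 9 lower), 53.6% against 33.3%. With library totals the split became 21 higher and 5 lower, and 25 higher and 5 lower. The medians were 0.08 and 0.18 on the log2 scale, against 0.02 and -0.01 over all genes.

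Sostdc1, a secreted antagonist of BMP and Wnt signalling, stood at 83.2, 80.1, 74.8 and 92.8 CPM in untreated CD34− and at 208, 232, 210 and 245 CPM in untreated CD34+ libraries. After N1-AcSpd, CD34− libraries held 66.5, 62.2, 45.6 and 65.6 CPM and treated CD34+ libraries 241, 278, 255 and 289 CPM. The sorts were separate, by 1.43 (SE 0.11, edgeR adjusted p 9.43e-07) and 2.15 (SE 0.11, adjusted p 4.21e-08) on the log2 scale. The treatment difference in CD34− cells, where the groups were separate, was -0.46 (SE 0.11, adjusted p 0.0779) and was called with mouse as a block (0.0233) and by DESeq2 (0.00156). The interaction of 0.71 (SE 0.16, p 4.53e-04) had an adjusted p of 1 in edgeR and of 0.00203 in DESeq2. For the interaction DESeq2 called 71 of all genes, where edgeR called 0. Sox9, a transcription factor of bulge and outer root sheath cells, was higher by 1.08 and 1.16, the co-repressor Tle1 by 0.74 and 0.69, and the glypican Gpc4 by 0.69 and 0.91.

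Genes of that list with a mean count under 50 were outside the rule for naming, and 4 of them are given after their values were seen, since they moved further than most of those named. Ror2, at a mean of 7.94 UMIs per library, was higher in the CD34+ sort in treated cells (log2 1.64, edgeR adjusted p 0.0242). In untreated cells it stood at 0.267 ± 0.156 CPM in CD34− and 0.569 ± 0.204 CPM in CD34+ libraries, which overlapped. Plaur, the urokinase receptor gene, fell by 1.64 in untreated and by 1.55 in treated cells on the log2 scale (edgeR adjusted p 9.68e-04 and 0.00117), from 2.22 ± 0.263 to 0.709 ± 0.269 CPM and from 2.26 ± 0.223 to 0.775 ± 0.365 CPM. The glypican Gpc3 was higher by 1.38 and 1.86, and the Dishevelled-binding Dact2 by 1.23 and 1.57.

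Among the lower genes with a mean count of 50 or more, the hyaluronan receptor Cd44 fell by 0.54 in untreated and by 0.62 in treated cells on the log2 scale. The co-repressor Tle4 fell by 0.68 (SE 0.16, edgeR adjusted p 0.00429) in untreated cells, and in treated cells its value was -0.34 (adjusted p 0.114). In treated cells the casein kinase Csnk1e fell by 0.35. Bcl9 fell by 0.86 and 0.83 and the cyclin gene Ccnd1 by 0.47 and 0.63, but each is overlapped by a gene with at least 0.5 of its UMIs. For treatment, Bambi, a decoy receptor of the TGFβ family, was called in CD34− cells at 0.83 (SE 0.17, adjusted p 0.0480), from 0.847 ± 0.130 to 1.50 ± 0.201 CPM, and averaged over both sorts at 0.56 (adjusted p 0.0209). In CD34− cells it was the only 1 of the 56 called, 1.79% against 0.614% of all tested genes. The CD34− call ended with DESeq2, without a filter on low counts, with only the compared groups, after thinning and in 19 of the 20 runs that left out 1 library or 1 mouse (log2 0.73 to 0.91), and the averaged call without the filter, after thinning and without any 1 of the 4 mice. With only the compared groups, 0 of all 19141 genes then tested were called in CD34− cells. The Wnt co-receptor Ryk and the β-catenin inhibitor Ctnnbip1 were also called on average. With Bambi that made 3 of the 56, or 5.36%, near the 4.86% of all tested genes. Ryk fell by 0.30 (adjusted p 0.0322) and Ctnnbip1 fell by 0.18 (adjusted p 0.0240), but these calls ended in 12 and 6 of the 20 runs, that of Ryk also without the filter and after thinning. In CD34+ cells edgeR called none of the 56, with 5 at an unadjusted p under 0.05 (13.2% of all genes were), and no alternative gave a call.

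The 17 members under a mean count of 5 are given as UMI counts summed over 4 libraries per group, in the order untreated CD34−, treated CD34−, untreated CD34+ and treated CD34+, with no test. Axin2, a feedback inhibitor that is a common readout of canonical signalling, held 18, 21, 20 and 18 UMIs, 77 in all, and lay just under the limit. The ligand gene Wnt7a held 32, 33, 6 and 1 UMIs and Wnt3 held 13, 9, 3 and 1. The R-spondin receptor Lgr6 held 1, 3, 22 and 15 UMIs and the ligand-binding inhibitor Wif1 held 6, 8, 16 and 24. The genes were singled out here after their values were seen.

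Wnt3a held 37 UMIs over all libraries, Wnt6 76, Wnt16 57, Fzd4 73 and Fzd9 28, with counts in every group. Nkd1 held 21, Wnt2b 19 and Wnt10b 16. Wnt8a, Wnt8b, Sfrp2 and Sfrp4 held 3, 2, 6 and 4. Wnt8b was at 0 in both CD34− groups, which allows up to 0.0356 CPM in untreated and 0.0291 CPM in treated cells at 3 counts over the group, and these limits cover counting error only. Sfrp4 was at 0 in untreated CD34−, Wnt8a in treated CD34− and Sfrp2 in treated CD34+ cells, where the limit is 0.0385 CPM. Counts of these genes were low at this depth, and differences between the groups were not tested.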

How the data were processed

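The deposited table holds raw UMI counts per gene for all 16 libraries. Per the labels and methods, the authors demultiplexed with FLEXBAR, aligned mate 2 of each pair to mm10 with kallisto (0.45.0 in the submitters' notes), assigned UMI tags with BEDTools and counted unique tags per gene. All samples were pooled in one tube after cDNA synthesis, and the labels name no batch. The annotation release and strand setting are not given in the sources used here. The 156050 empty cells were read as 0. Symbols came from GENCODE M21 on GRCm38, which lacked 62 of the 32989 identifiers.

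The filter on a mean count of at least 5 was that of the study, which used DESeq2 and stated no model formula or block. For its gene lists the study also asked for an absolute log2 fold change over 0.5, which the calls here did not. Here edgeR 4.0.16 (R 4.3.3) with TMM scaling and two-sided quasi-likelihood tests was the principal test, in 1 fit of 16 libraries with 1 mean per group, and DESeq2 1.42.0 an alternative. Benjamini-Hochberg adjustment ran over all 19049 genes, and genes under an adjusted p of 0.05 were called. SEs were derived from F, or, where edgeR raises p to its Poisson value, from that p. CPM were computed from TMM-scaled totals. On simulated data of the untreated cell type effect, 71.5% of 200 genes changed by 1 on the log2 scale were recovered among 19049, with 5.92% false calls. The changed genes were drawn only from those with a higher mean count than the filter asked, and no mouse effect was simulated. Recovery of genes near the filter was therefore not tested.

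A replicate number marks 1 mouse in all 4 groups, per the labels, so libraries are paired by animal. Deviations from group means of same-mouse libraries had a mean correlation of 0.013 across genes (24 pairs, -0.069 to 0.086). The principal test did not use the pairing, so the averaged treatment effect counted both sorts of 1 mouse as separate libraries. With mouse as a block, treatment calls over all genes rose from 117 to 349 in CD34− cells, from 62 to 152 in CD34+ cells and from 925 to 1551 averaged. Libraries of 1 group differed well beyond sampling noise. Values by library were given, by rule, for members called in a cell type comparison with an absolute log2 fold change of at least 0.5 and a mean count of 50 or more, for members called in a treatment comparison, and otherwise for the smallest p in each direction. Lgr4, Wnt7b, Lgr5, Dkk1 and Sostdc1 were added after their values were seen. Of the other pathway genes, the 4 largest called changes each way among those with a mean count of 50 or more were named, and Plaur, Gpc3, Dact2 and Ror2 were added after their values were seen. The members, the lists and these rules were chosen with earlier results of these data known. Members without a row were not analysed here.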

Additional observations from a re-analysis of the deposited data

Results flagged for a closer look

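For 13 members named by the rule, 52 groups of 4 libraries were checked for a library far from the other 3 by Dixon's ratio, and 3 groups had one. Chance alone marks about 1 in 20 groups. Fzd7 in the treated CD34+ library of mouse 2 was at 4.55 CPM, below the others at 5.09 to 5.17 CPM. Tcf7l2 in the treated CD34+ library of mouse 1 was at 5.31 CPM, above the others at 3.64 to 3.70 CPM. Wnt5b in the untreated CD34+ library of mouse 4 was at 3.24 CPM, above the others at 2.91 to 2.96 CPM. All 3 libraries lay on the CD34+ side of their genes' CD34− libraries.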

How the results depend on the processing

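The count of members called for the cell type effect stayed within 1.5 times the reported one under DESeq2, mouse as a block, other scalings and filters, with 14 to 16 members called in untreated and 14 to 17 in treated cells when 1 library or 1 mouse was left out, and no log2 fold change of a named member reversed. The treatment calls were less stable, and so were those over all genes. Leaving out 1 mouse gave 4 to 19 calls over all genes in CD34−, 3 to 12 in CD34+ and 175 to 277 averaged, against 117, 62 and 925. In CD34− cells 1 member was called with mouse as a block and 2 with DESeq2, and in CD34+ cells 2 with DESeq2 size factors (Porcn and Wnt10a), 0 with only the compared groups and 3 with DESeq2 (Porcn, Wnt10a and Ctnnb1). Averaged over both sorts, no member (0) passed an added absolute log2 fold change of 0.5. Leave-out runs gave 0 to 1, 0 to 1, 1 to 4 and, for the interaction, 0 to 0 members. For the other pathway genes they gave 17 to 24 and 23 to 30 for the cell type effects, 0 to 1, 0 to 0 and 0 to 4 for treatment in CD34−, in CD34+ and averaged, and 0 to 0 for the interaction. The added fold change left 14, 17 and, averaged, 1 of these. In CD34− cells 0 were called without a low-count filter, with only the compared groups or after thinning, 2 with mouse as a block and 4 with DESeq2 (Gpc4, Prickle3, Ryk and Sostdc1, without Bambi). Averaged, 1 was called without the filter, 1 after thinning and 6 with DESeq2, which also called 1 for the interaction, Sostdc1. The causes were not tested. Beyond Ctnnb1 and Sostdc1 in treated CD34− cells, mouse as a block changed no call of a member given by library, or of a treatment effect in either list. Genes at a few UMIs per library, overlapping genes and the 4 mice per group limit what can be seen.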
